A study of Mus musculus with 7 samples.

Results

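The transcripts of 34 enzyme genes that carry glucose and lactate carbon to pyruvate and through the tricarboxylic acid (TCA) cycle were followed in mouse oocytes. The genes were taken by symbol from a fixed list, and all 34 were found among the 25912 entries of the deposited expression tables. They comprise 16 genes of glycolysis and lactate dehydrogenase, 5 of the pyruvate dehydrogenase complex (PDC) and 13 of the TCA cycle. The libraries came from oocytes arrested at the germinal vesicle (GV) stage and from oocytes cultured to mature and labelled metaphase II (MII). The latter were cultured with or without BYBX, a small molecule that binds and stabilizes RNA G-quadruplexes (rG4s), 4-stranded folds of guanine-rich RNA.

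There were 2 GV libraries, which the labels list as control without treatment although the methods of the study give DMSO for GV oocytes too, 3 libraries of control MII oocytes given DMSO, the solvent, and 2 libraries of MII oocytes given BYBX, listed with the genotype Treat. No genetic change is named for any group, and the mice were 4-week-old females of C57BL/6 background primed with gonadotropin. Each library pooled 10 oocytes, and the labels and methods of these libraries do not name the dose of BYBX, while 1 μM is named where their levels are set against ribosome-bound mRNA. In the study, fewer oocytes emitted the first polar body as the BYBX dose rose, and few treated oocytes reached MII, with abnormal spindles. How many of the BYBX-treated oocytes pooled in these libraries had reached the MII stage is not given in the sources used here. A difference in stage between BYBX and DMSO libraries cannot be told apart from an effect of treatment and was not tested. Nothing states that libraries of a group came from separate mice, so the tests measure the spread between libraries, which may be technical. Levels are in FPKM (fragments scaled to transcript length and to mapped fragments), scaled by the authors to an RNA spike-in. They are per length, but priming from the poly(A) tail and the use of uniquely mapped reads can affect genes unequally. Comparisons of level between genes are therefore approximate. The tables keep no read counts, so the depth is unknown and no counting interval can be given.

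An oocyte uses glucose poorly by itself. Pyruvate, supplied in large part by the surrounding cumulus cells or made from lactate, is its main fuel, and it is oxidized in the mitochondria through the PDC and the TCA cycle. During maturation transcription is silent, and a large share of the stored maternal mRNA is deadenylated, degraded or recruited for translation. Reverse transcription started from oligo-dT primers, so less RNA and a shorter poly(A) tail cannot be told apart in any value below.

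The summed FPKM of all entries was 402113 and 489569 in the GV libraries, 109732 to 127254 in MII with DMSO, and 201482 and 246710 in MII with BYBX. The scale of the libraries thus moved with the groups, and the results at 2 other scales are given below. Overlap between groups is described for single genes at the scale of the authors, where the totals themselves did not overlap. The share of all entries without overlap was not counted, so a lack of overlap is not a trait of these genes. Over the 9202 entries tested, the median log2 fold change was -1.83 from GV to MII with DMSO, 0.84 from MII with DMSO to MII with BYBX and -0.99 from GV to MII with BYBX, and member values are read against these medians. All 12 oocyte markers were above 1 FPKM in at least 1 library. The 14 granulosa and cumulus markers summed to 9.98 and 17.6 FPKM in GV, 2.39 to 2.68 in MII with DMSO and 4.27 and 4.88 in MII with BYBX, with Ptx3 listed at 0 throughout, and the part of these cells in the results was not tested. Markers of erythrocytes summed to at most 1.13 FPKM and those of leukocytes to at most 1.72, with Ptprc and Adgre1 of the latter listed at 0, while those of endothelium summed to 4.84 to 10.9, with Cdh5 listed at 0.

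Because BYBX binds rG4s, the annotated transcripts of the 34 genes were searched in the mRNA sequence itself for 4 runs of at least 3 G separated by 1 to 7 bases of any kind. Such a run of letters was found in 6 of the 34 transcripts (17.6%), against 17.7% of the 8718 tested entries that could be matched to a transcript. The matches are given here with the G runs in capitals, on GRCm38, so that they can be set beside the values of these genes. A match is a property of the letters and not a measured fold.
Pkm, 5′ UTR, chr9:59656499-59656523, plus strand: GGGcgaGGGGcGGGGctgcggaGGG
Pkm, 3′ UTR, chr9:59679159-59679183, plus strand: GGGGctgaGGGtgtGGGGcccaGGG
Gpi1, 3′ UTR, chr7:34201990-34202019, minus strand: GGGGacagctGGGtgataGGGGcacttGGG
Gpi1, 3′ UTR, chr7:34201873-34201891, minus strand: GGGGttGGGtaGGGtGGGG
Dlat, coding sequence, chr9:50659400-50659423, minus strand: GGGatGGGttcaGGGctcggtGGG
Eno1, 5′ UTR, chr4:150237165-150237186, plus strand: GGGaGGGcGGGcccgaaaGGGG
Pgk1, 5′ UTR, chrX:106187100-106187120, plus strand: GGGGGcGGGctcaGGGGcGGG
Pfkl, 5′ UTR, chr10:78009779-78009801, minus strand: GGGGcGGGGcGGGacaaaccGGG

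Transcripts of nearly every step fell from GV to MII and stood between both stages with BYBX. Of the 34 genes, 28 passed the filter of a mean of 1 FPKM over the 3 group means and were tested with limma on log2(FPKM + 1). The other 6 (Hk1, Hk2, Pfkm, Aldoc, Ldha and Idh2) were too low and are given by their values alone. From GV to MII with DMSO, 27 of the 28 were lower at a Benjamini-Hochberg adjusted p under 0.05 and 0 were higher, where 88.3% of all entries tested were lower and 0.272% higher. The median member fold change was -2.80, and 20 of the 28 lay below the median of all entries. From MII with DMSO to MII with BYBX, 25 were higher and 0 lower, where 65.2% of all entries were higher and 0.0326% lower. The median member fold change was 1.42, and 21 of the 28 lay above the median of all entries. From GV to MII with BYBX, 22 were lower and 0 higher against 69.2% and 0.315% of all entries, with a median of -1.50. In the MII libraries with DMSO, 8 of the tested members averaged under 1 FPKM and had passed the filter through the other groups, so the counts over tested members are a description of those that passed.

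**Figure D1:**
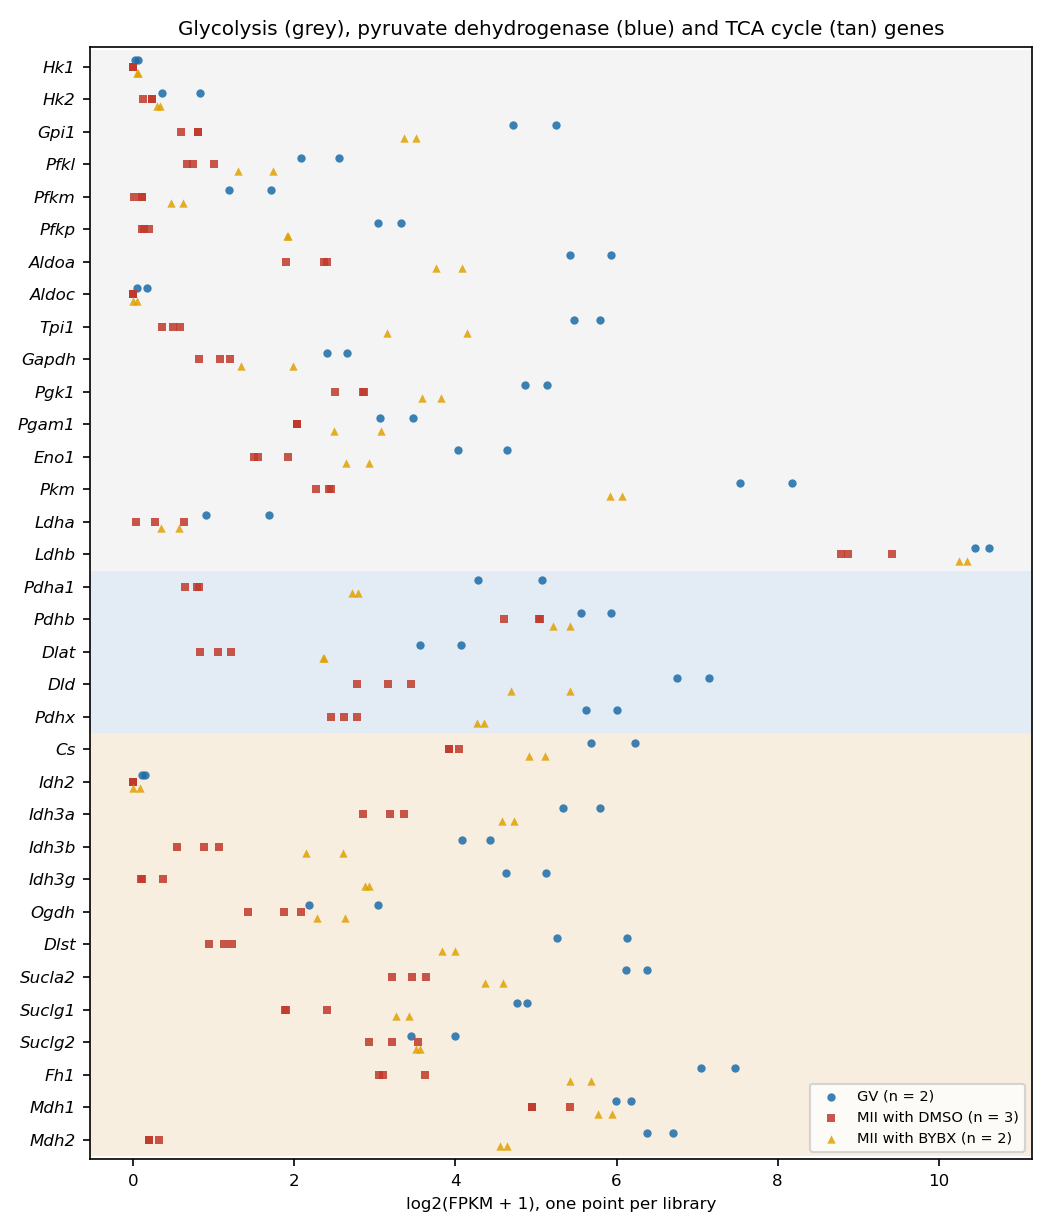
Level of each of the 34 genes as log2(FPKM + 1), with a point for each of the 2 GV, 3 MII with DMSO and 2 MII with BYBX libraries, in pathway order. Mdh2 lies near 0 in the MII libraries with DMSO while Mdh1 does not, and Ldhb is the highest gene in all 7 libraries.

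The direction of single genes depended on the scale, since the whole distribution moved. With every library set to the same total FPKM, 19 members were lower and 3 higher from GV to MII with DMSO (49.5% and 23.3% of all entries), 15 were higher and 0 lower with BYBX against DMSO (39.9% and 8.22%), and 4 were lower and 2 higher with BYBX against GV (13.3% and 5.3%). With libraries centred on their median, which moves the median of all entries to 0.47, -0.44 and 0.04, the counts were 14 lower and 8 higher (26.7% and 48.8%), 9 higher and 5 lower (18.4% and 43.9%), and 8 lower and 3 higher (13.6% and 15.2%). At the same total, the falls of Cs, Gapdh, Ldhb, Ogdh, Pfkl and Pgam1 at MII lost their call. Those of Mdh1 and Pdhb were reversed, and both were called higher at MII (0.86 and 0.99). The rises of Cs, Eno1, Gapdh, Ldhb, Mdh1, Pfkl, Pgam1, Pgk1, Sucla2 and Suclg1 with BYBX also lost their call. With BYBX against GV the only genes still called lower were Idh3g, Mdh2, Pdha1 and Pkm. Mdh2, Pkm, Tpi1, Idh3g, Dlst, Gpi1, Fh1, Pdha1 and Pfkp fell from GV to MII and were higher with BYBX than with DMSO at each of the 3 scales. Both conditions use the same DMSO libraries, so a low value there gives the fall and the rise together. Of these genes, Mdh2, Tpi1, Idh3g, Gpi1, Pdha1 and Pfkp averaged under 1 FPKM with DMSO and passed the filter through the other groups. The share of all entries that meet both conditions was not counted, so the list is a description.

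Glycolysis opens with hexokinase, which traps glucose as its phosphate. Hk1 was listed at 0 in the 3 MII libraries with DMSO and stood at 0.0388 and 0.02 FPKM in GV and 0.0314 and 0.0394 in MII with BYBX. Hk2 was 0.785 and 0.278 FPKM in GV, 0.177, 0.177 and 0.087 in MII with DMSO, and 0.225 and 0.26 in MII with BYBX. Both hexokinases were thus under 1 FPKM in every library, and Hk3, a further hexokinase, was listed at 0 in all. The next enzyme, glucose phosphate isomerase (Gpi1), was 36.9 and 25.2 FPKM in GV, 0.746, 0.516 and 0.754 in MII with DMSO, and 10.4 and 9.32 in MII with BYBX, with no overlap between groups. It fell by 4.24 on the log2 scale (SE 0.24, limma adjusted p = 1.6e-09) at MII and was 2.70 higher with BYBX than with DMSO (SE 0.24, adjusted p = 5.8e-07).

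Phosphofructokinase commits the sugar to glycolysis and has liver (Pfkl), muscle (Pfkm) and platelet (Pfkp) forms. Pfkp was the highest of them in GV with 8.99 and 7.22 FPKM, dropped to 0.142, 0.102 and 0.0807 in MII with DMSO and stood at 2.77 and 2.78 with BYBX. Pfkl was lower in GV (4.88 and 3.25 FPKM) but higher than Pfkp in each MII library with DMSO (1, 0.673 and 0.584), and was 2.32 and 1.47 with BYBX. The order of the platelet and liver forms was therefore Pfkp over Pfkl in both GV libraries and both BYBX libraries and the reverse in the 3 libraries with DMSO. Pfkm held 2.27 and 1.29 FPKM in GV and at most 0.541 in any MII library. The fold change at MII was -3.03 for Pfkp (SE 0.19) and -1.52 for Pfkl (SE 0.22), and that with BYBX against DMSO was 1.77 (SE 0.19, adjusted p = 3.5e-06) and 0.71 (SE 0.22, adjusted p = 0.013). With 0.1 FPKM added in place of 1 the fold changes at MII were -5.30 and -2.29, and those with BYBX 3.80 and 1.22. The rise of Pfkl was lost without BYBX replicate 1 (0.50) or without a filter on level (0.71), and its difference of -0.80 between BYBX and GV without GV replicate 1 (-0.57) or BYBX replicate 2 (-0.59). Exons of Pfkp share 18% of their bases with Pitrm1 on the opposite strand, and these libraries keep no strand.

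Aldolase and triose phosphate isomerase split the sugar and interconvert its fragments. Aldoa was 59.8 and 41.8 FPKM in GV, 4.3, 2.74 and 4.18 in MII with DMSO and 12.5 and 16 in MII with BYBX, whereas Aldoc was listed at 0 in all libraries with DMSO and did not exceed 0.123 FPKM elsewhere. Tpi1 was 54.7 and 43.4 FPKM in GV, 0.491, 0.412 and 0.278 in MII with DMSO and 7.9 and 16.7 in MII with BYBX. The groups did not overlap for Aldoa or Tpi1, although the BYBX libraries differed from each other most for Tpi1 and Gapdh among the glycolytic genes above 1 FPKM. On the log2 scale Aldoa fell by 3.45 at MII (SE 0.27) and was 1.70 higher with BYBX (SE 0.27, adjusted p = 9.7e-05), and Tpi1 fell by 5.16 (SE 0.29) and was 3.17 higher (SE 0.29, adjusted p = 6.9e-07). Tpi1 kept 0.803% of its GV mean in MII with DMSO and 25.1% with BYBX.

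The 4 enzymes that follow, from glyceraldehyde phosphate to phosphoenolpyruvate, changed less than Aldoa and Tpi1, though Pgk1 and Eno1 changed more than Pfkl. Gapdh, the glyceraldehyde phosphate dehydrogenase, was 5.28 and 4.31 FPKM in GV, 1.3, 0.761 and 1.11 in MII with DMSO and 1.52 and 2.96 with BYBX. Pgk1, which makes the first ATP of the pathway, was 34.2 and 28.2 FPKM, then 4.7, 6.24 and 6.26, and 13.1 and 11 with BYBX. Pgam1, the phosphoglycerate mutase, was 10.1 and 7.35 FPKM, then 3.09, 3.08 and 3.11, and 4.65 and 7.46. Of these 3, Pgam1 with BYBX overlapped its GV values, and the others did not overlap between groups. Eno1, the enolase, was 23.9 and 15.4 FPKM in GV, 2.79, 1.92 and 1.83 with DMSO, and 5.22 and 6.6 with BYBX, again without overlap.

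All 4 fell at MII, with log2 fold changes of -1.50 for Gapdh (SE 0.24), -2.26 for Pgk1 (SE 0.24), -1.23 for Pgam1 (SE 0.25) and -2.68 for Eno1 (SE 0.26). With BYBX against DMSO they were 0.63 (SE 0.24, adjusted p = 0.031), 0.96 (SE 0.24, adjusted p = 0.0038), 0.76 (SE 0.25, adjusted p = 0.016) and 1.12 (SE 0.26, adjusted p = 0.0018) higher. The rises of Gapdh and Pgam1 lay below the median of all entries, and those of Pgk1 and Eno1 above it by 0.12 and 0.29. That of Gapdh was lost without DMSO replicate 2 (0.52), DMSO replicate 3 (0.65) or BYBX replicate 2 (0.30), and that of Pgam1 without BYBX replicate 2 (0.47). With the replicate number as a block neither was called (0.65, adjusted p = 0.082, and 0.76, adjusted p = 0.059), and without a filter on level that of Gapdh was not (0.63, adjusted p = 0.11). Against GV, Gapdh with BYBX was 0.87 lower, a call lost without GV replicate 1 (-0.75) or BYBX replicate 1 (-0.54), while Pgam1 with BYBX, at -0.48, was not called (adjusted p = 0.13) except without BYBX replicate 2 (-0.77). These 4 genes shared the largest parts of their sequence with other genes. As many as 82.5% of the 50-base words of the Gapdh transcript, 68% of those of Pgk1, 41.5% of those of Pgam1 and 72.2% of those of Eno1 also occur in annotated transcripts elsewhere, so their levels are uncertain. Only uniquely mapped reads were used by the authors, so reads from such stretches could be lost or assigned to a copy.

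Pyruvate kinase (Pkm) closes glycolysis and was the second highest gene of the set in GV. It measured 289 and 184 FPKM in GV, 4.4, 3.82 and 4.5 in MII with DMSO and 65.9 and 59.3 in MII with BYBX. The groups were far apart, and the rank of Pkm among the 25908 complete entries went from 255 and 356 in GV to 2754, 3174 and 2951 with DMSO and 656 and 590 with BYBX. It fell by 5.47 on the log2 scale (SE 0.26, adjusted p = 5.4e-10), which is -3.64 relative to the median of all entries, and was 3.60 higher with BYBX than with DMSO (SE 0.26, adjusted p = 1.3e-07). With BYBX it remained 1.87 below GV (SE 0.29, adjusted p = 0.00013). The gene lies on chr9:59656368-59679375 (plus strand), and 34.4% of the 50-base words of its transcript occur in those of other annotated genes.

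Lactate dehydrogenase, which makes pyruvate from lactate and the reverse, showed a different course. Ldhb, the heart-type subunit, was 1579 and 1400 FPKM in GV, 468, 442 and 682 in MII with DMSO, and 1218 and 1306 in MII with BYBX. Ldha, the muscle-type subunit, was 2.22 and 0.877 FPKM in GV and under 1 FPKM in each MII library. Ldhb thus exceeded Ldha in every library, and it ranked between 13 and 34 of all 25908 entries. Its fall of 1.51 at MII (SE 0.24, adjusted p = 4.6e-05) was 0.32 smaller than the median of all entries, it was 1.28 higher with BYBX than with DMSO (SE 0.24, adjusted p = 0.00045), and with BYBX it differed from GV by -0.24 (SE 0.27, adjusted p = 0.44). Set to the same total, the fold change of Ldhb at MII was 0.37 and not called, and that with BYBX against GV was 0.75 and called higher. Ldhb made up 50% and 55% of the summed FPKM of the 34 genes in GV, 73.9% to 80% in MII with DMSO, and 71.7% and 72.8% in MII with BYBX. Without Ldhb, the other 33 genes summed to 1363 ± 309 FPKM in GV (SD, n = 2), 158 ± 17.2 in MII with DMSO (SD, n = 3) and 485 ± 5.79 in MII with BYBX (SD, n = 2), or 11.6% and 35.6% of GV. Ldhb, on chr6:142490249-142507957 (minus strand), shares 27% of its 50-base words with a single other annotated gene.

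The PDC turns pyruvate into acetyl-CoA. Its E1 enzyme is built of an alpha subunit (Pdha1) and a beta subunit (Pdhb) in equal number, and the transcripts of both diverged. Pdha1 was 32.6 and 18.4 FPKM in GV, 0.73, 0.556 and 0.763 in MII with DMSO and 5.55 and 5.95 in MII with BYBX. Pdhb was 60.2 and 46.3 FPKM in GV, 31.8, 23.4 and 32.2 in MII with DMSO and 41.8 and 36.1 in MII with BYBX. Neither gene overlapped between groups, but the steps were large for Pdha1 and small for Pdhb. Pdha1 fell by 3.92 (SE 0.26, adjusted p = 5.4e-09) and was 2.0 higher with BYBX (SE 0.26, adjusted p = 1.4e-05). Pdhb fell by 0.85 (SE 0.26, adjusted p = 0.0074), a call that was lost without GV replicate 1 (-0.67), and with BYBX it differed by 0.42 from DMSO (SE 0.26, adjusted p = 0.17) and by -0.43 from GV (SE 0.29, adjusted p = 0.19). At the same total FPKM Pdhb was 0.99 higher at MII than in GV.

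The remaining PDC genes behaved more like Pdha1. Dlat, the E2 acetyltransferase, was 15.8 and 10.8 FPKM in GV, 1.33, 1.08 and 0.783 with DMSO and 4.1 and 4.16 with BYBX. Dld, the E3 dehydrogenase that the 2-oxoglutarate complex shares, was 141 and 107 FPKM, then 9.95, 5.87 and 7.97, and 24.8 and 41.9 with BYBX. Pdhx, the E3-binding protein, was 63.1 and 48.1 FPKM, then 5.87, 4.51 and 5.16, and 19.4 and 18.3. In all 3 the BYBX libraries lay between both other groups without overlap. Their fold changes at MII were -2.78 (SE 0.23), -3.82 (SE 0.30) and -3.19 (SE 0.24), and they were 1.32, 1.92 and 1.69 higher with BYBX than with DMSO (adjusted p = 0.00025, 8.5e-05 and 4.6e-05). Exons of Pdha1 overlap Map3k15 on the opposite strand over 21.2% of their bases, and 30.3% of the 50-base words of Pdhb occur in 1 other annotated gene, so that both sides of their contrast carry some uncertainty.

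**Figure D2:**
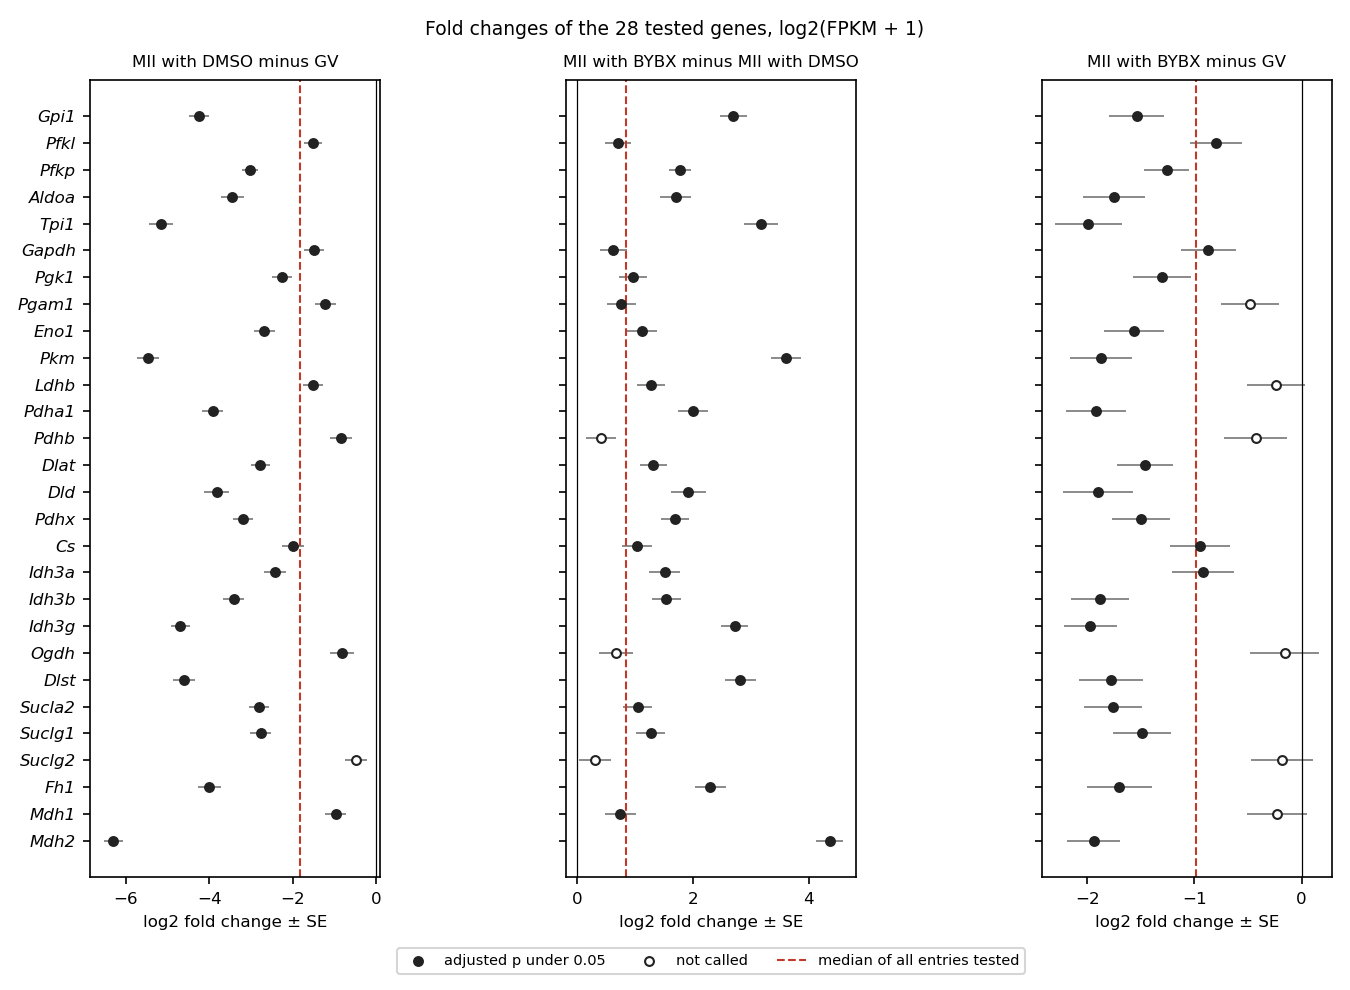
Log2 fold change ± SE of the 28 tested genes in the 3 comparisons, with filled points at an adjusted p under 0.05 and a dashed line at the median of all 9202 entries. Mdh2, Pkm and Tpi1 lie farthest below the dashed line from GV to MII, and Suclg2, Ogdh, Pdhb and Mdh1 lie above it.

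The TCA cycle begins with citrate synthase (Cs), at 74.3 and 50.2 FPKM in GV, 14.2, 15.5 and 14.2 in MII with DMSO and 33.5 and 29.1 in MII with BYBX. Its groups did not overlap, and its fall of 1.99 (SE 0.26) at MII and rise of 1.04 with BYBX (SE 0.26, adjusted p = 0.0029) were close to the medians of all entries. With BYBX it stood 0.95 below GV, a call lost without GV replicate 1 (-0.67) or BYBX replicate 2 (-0.85).

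The NAD-dependent isocitrate dehydrogenase of the mitochondria consists of the catalytic alpha subunit (Idh3a) with beta (Idh3b) and gamma (Idh3g) subunits. Idh3a was 54.5 and 39.5 FPKM in GV, 9.28, 6.25 and 8.14 in MII with DMSO and 22.9 and 25.4 with BYBX. Idh3b was 20.6 and 16 FPKM, then 1.09, 0.464 and 0.844, and 3.41 and 5.09 with BYBX. Idh3g was 34 and 23.7 FPKM, then 0.294, 0.076 and 0.0723, and 6.38 and 6.64 with BYBX. All 3 subunits separated the 3 groups, and the level left in MII with DMSO was 16.8% of GV for Idh3a, 4.39% for Idh3b and 0.51% for Idh3g. Their fold changes at MII were -2.43 (SE 0.26), -3.42 (SE 0.25) and -4.69 (SE 0.23), and they were 1.51, 1.54 and 2.72 higher with BYBX than with DMSO (adjusted p = 0.0002, 0.00011 and 4.2e-07). With 0.1 FPKM added in place of 1, the rises of Idh3b and Idh3g were 2.31 and 4.85. The call of Idh3a with BYBX against GV (-0.92) was lost without GV replicate 1 (-0.69) or BYBX replicate 1 (-0.84). Idh2, the NADP-dependent mitochondrial enzyme, was at most 0.103 FPKM in GV and listed at 0 in every library with DMSO.

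The 2-oxoglutarate dehydrogenase complex has Ogdh as its E1 and Dlst as its E2 component. Ogdh was 7.24 and 3.56 FPKM in GV, 3.24, 1.68 and 2.67 in MII with DMSO and 3.88 and 5.21 in MII with BYBX. Dlst was 68.9 and 37.5 FPKM in GV, 1.18, 1.35 and 0.924 with DMSO and 13.3 and 15 with BYBX. Ogdh with BYBX lay within its GV range, whereas Dlst separated all groups and was higher than Ogdh in both GV libraries but lower than Ogdh in each library with DMSO. Dlst fell by 4.60 (SE 0.27, adjusted p = 2.6e-09) and was 2.82 higher with BYBX (SE 0.27, adjusted p = 1.3e-06). Ogdh fell by 0.82 (SE 0.29, adjusted p = 0.016), which was lost without GV replicate 1 (-0.39), DMSO replicate 2 (-0.64) or a filter on level (-0.82). Its difference of 0.67 with BYBX against DMSO was not called (SE 0.29, adjusted p = 0.056) but was called without either GV library (0.67) or without DMSO replicate 1 (0.81), and against GV it was -0.16 (SE 0.32, adjusted p = 0.67).

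Succinyl-CoA synthetase pairs a common alpha subunit (Suclg1) with a beta subunit that sets whether ATP (Sucla2) or GTP (Suclg2) is made. Sucla2 was 82.1 and 68.3 FPKM in GV, 11.4, 10 and 8.28 in MII with DMSO and 19.7 and 23.2 in MII with BYBX. Suclg2 was 14.9 and 9.9 FPKM in GV, 10.6, 6.63 and 8.26 with DMSO and 10.4 and 10.8 with BYBX. Suclg1 was 28.7 and 26.3 FPKM, then 2.69, 2.74 and 4.3, and 9.71 and 8.56. Sucla2 and Suclg1 separated the 3 groups, and Suclg2 overlapped in all of them. The ATP form exceeded the GTP form in both GV libraries, and the 2 were near each other in the libraries with DMSO.

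Sucla2 fell by 2.81 (SE 0.25, adjusted p = 1.2e-07) and Suclg1 fell by 2.77 (SE 0.25, adjusted p = 1.2e-07), and they were 1.05 and 1.27 higher with BYBX than with DMSO (adjusted p = 0.0024 and 0.00052). Both rises lost their call at the same total FPKM (0.22, adjusted p = 0.47, and 0.56, adjusted p = 0.057) and with median centring (-0.23 and -0.00). Suclg2 was the only tested gene of the set that was not called at MII, with -0.49 (SE 0.27, adjusted p = 0.096), although it was called without GV replicate 2 (-0.76) or DMSO replicate 1 (-0.65). With BYBX it differed by 0.31 from DMSO (SE 0.27, adjusted p = 0.31). At the same total FPKM it was 1.23 higher at MII than in GV. Of its 50-base words, 21.8% occur in 1 other annotated gene.

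Fumarase (Fh1) and malate dehydrogenase complete the cycle. Fh1 was 176 and 131 FPKM in GV, 7.58, 7.28 and 11.3 in MII with DMSO and 50.4 and 42 in MII with BYBX, without overlap. It fell by 4.00 (SE 0.27, adjusted p = 8.5e-09) and was 2.30 higher with BYBX (SE 0.27, adjusted p = 7.6e-06).

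The 2 malate dehydrogenases, which interconvert malate and oxaloacetate in the mitochondria (Mdh2) and the cytosol (Mdh1), had the widest contrast of the set. Mdh2 was 103 and 82.1 FPKM in GV, 0.249, 0.142 and 0.15 in MII with DMSO and 23.9 and 22.5 in MII with BYBX. Mdh1 was 71.5 and 62.9 FPKM in GV, 29.9, 29.8 and 41.9 in MII with DMSO and 60.3 and 53.8 in MII with BYBX. Both separated the groups, yet MII with DMSO kept 0.195% of the GV mean of Mdh2 and 50.4% of that of Mdh1. Mdh2 fell by 6.30 on the log2 scale (SE 0.23, adjusted p = 2.4e-10), which is -4.47 relative to the median of all entries, and was 4.36 higher with BYBX than with DMSO (SE 0.23, adjusted p = 2.4e-08). Mdh1 fell by 0.98 (SE 0.26, adjusted p = 0.0026), 0.85 less than the median, and was 0.75 higher with BYBX (SE 0.26, adjusted p = 0.02), which was lost without DMSO replicate 1, DMSO replicate 2 or BYBX replicate 1 (0.67 in each case). Mdh1 was instead 0.86 higher at MII than in GV at the same total FPKM, and was called higher there. With BYBX, Mdh2 stood 1.94 below GV (SE 0.25, adjusted p = 6.9e-05) and Mdh1 0.23 below it (SE 0.28, adjusted p = 0.47). Mdh2 lies on chr5:135778480-135790398 (plus strand) and Mdh1 on chr11:21556787-21572367 (minus strand) of GRCm38. Neither transcript shares a 50-base word with another annotated gene, and the exons of these transcripts overlap no other annotated exon.

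Within a library, 12 pairs of isozymes or subunits were compared as the log2 of the (FPKM + 1) ratio. Such a ratio depends on the library's scale only through the added 1 FPKM, which draws the ratio of a gene near or under 1 FPKM towards 0 and weighs more in the libraries with lower totals. Exact two-sided permutation tests cannot give a p below 0.1 with 2 libraries against 3 or below 0.33 with 2 against 2, and over the 36 comparisons the smallest adjusted p was 0.212, so none passed.

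The ratio of Mdh1 to Mdh2 was -0.52 and -0.38 in GV, 4.63, 4.75 and 5.22 in MII with DMSO and 1.30 and 1.22 in MII with BYBX. It rested on an order that changed sides, with Mdh2 above Mdh1 in GV and below it in every MII library. The difference was 5.32 between MII with DMSO and GV and -3.61 between MII with BYBX and MII with DMSO (exact permutation p = 0.1, adjusted p = 0.212 for both). With 0.1 FPKM added in place of 1 these differences were 7.38 and -5.63. The ratio of Pdha1 to Pdhb was -0.87 and -1.29 in GV, -4.25, -3.97 and -4.23 with DMSO and -2.71 and -2.42 with BYBX. That of Sucla2 to Suclg2 was 2.39 and 2.67, then 0.09, 0.53 and 0.00, and 0.86 and 1.04 with BYBX. In both pairs the BYBX libraries lay between GV and MII with DMSO.

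The ratio of Idh3a to Idh3g was 0.66 and 0.71 in GV, 2.99, 2.75 and 3.09 with DMSO and 1.69 and 1.79 with BYBX. That of Idh3a to Idh3b was 1.36 and 1.25 in GV, 2.30, 2.31 and 2.31 with DMSO and 2.44 and 2.12 with BYBX. With 1 FPKM added, the BYBX libraries were between both groups for the gamma subunit. For the beta subunit they overlapped those with DMSO, where the difference was -0.03 (exact permutation p = 0.7). With 0.1 FPKM added that difference was -0.69. Idh3b was 1.09, 0.464 and 0.844 FPKM with DMSO, near or under the added 1 FPKM. The overlap therefore depends on the added amount and is not read as a contrast between the subunits. The ratio of Dlat to Pdhx moved least between MII with BYBX and GV, by 0.04. Ratios with a gene under 1 FPKM in most libraries (Hk1, Hk2, Pfkm, Aldoc, Ldha and Idh2) follow the added 1 FPKM more than the gene and are shown only in the plot of ratios.

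**Figure D3:**
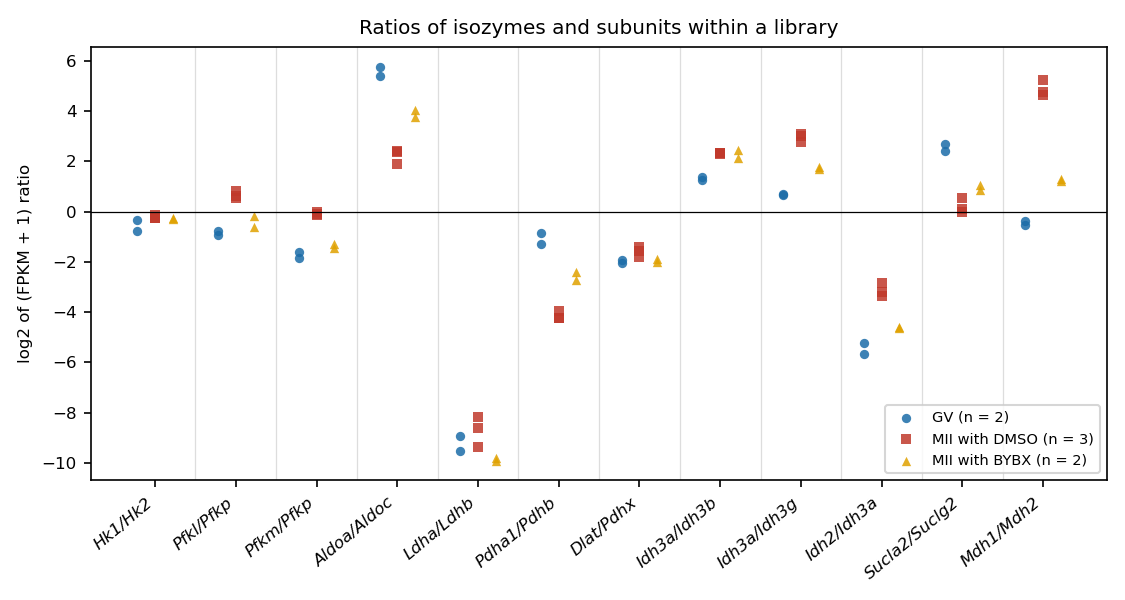
Log2 of the (FPKM + 1) ratio within each library for the 12 pairs, with a point for each of the 7 libraries. Mdh1/Mdh2, Pdha1/Pdhb, Idh3a/Idh3g and Sucla2/Suclg2 place the BYBX libraries between GV and MII with DMSO. Idh3a/Idh3b places them with DMSO when 1 FPKM is added, where Idh3b itself was near or under 1 FPKM with DMSO.

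Summed by pathway block, glycolysis with lactate dehydrogenase was 1938 ± 248 FPKM in GV (SD, n = 2), 553 ± 133 in MII with DMSO (SD, n = 3) and 1393 ± 67.3 in MII with BYBX (SD, n = 2). The PDC was 272 ± 57.5, 44 ± 7.58 and 101 ± 7.66 FPKM, and the TCA genes 643 ± 131, 91.5 ± 9.54 and 253 ± 7.31 FPKM in the same order. The first sum is mostly Ldhb. The TCA sum includes the cytosolic Mdh1, with a mean of 33.9 FPKM in MII with DMSO. MII with DMSO kept 28.5%, 16.2% and 14.2% of the GV level of the 3 blocks, and MII with BYBX 71.9%, 37.2% and 39.3%. The median fold changes of the tested genes were nearly alike in the blocks, at -2.68, -3.19 and -2.79 from GV to MII and at 1.28, 1.69 and 1.39 with BYBX against DMSO. At 10 FPKM or more there were 24 and 22 of the 34 genes in GV, 5 or 6 in MII with DMSO and 16 in each library with BYBX. The share of all entries at this level was not counted, and the library totals moved in the same order. These counts are therefore not a trait of these genes.

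By step, triose phosphate isomerase, pyruvate kinase and glucose phosphate isomerase had the least left in MII with DMSO, at 0.803%, 1.79% and 2.16% of GV. The malate dehydrogenase step, at 21.3%, sums the cytosolic Mdh1, which kept 50.4%, with the mitochondrial Mdh2, which kept 0.195%. Lactate dehydrogenase and phosphoglycerate mutase had the most, at 35.6% and 35.5%. With BYBX the steps ranged from 25.1% for triose phosphate isomerase to 84.7% for lactate dehydrogenase. The share of the GV to MII difference still present with BYBX, taken as the BYBX mean minus the DMSO mean over the GV mean minus the DMSO mean, had a median of 0.251 over the 34 genes. Over the 27 members called lower at MII the median was also 0.251, and over the 8127 entries that fell at MII it was 0.288. Both parts of this share use the same DMSO libraries, so it is a description without a test. Rescaling each library to a common total gave 0.498 over the 34 genes, and the value over all entries at that scale was not computed.

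**Figure D4:**
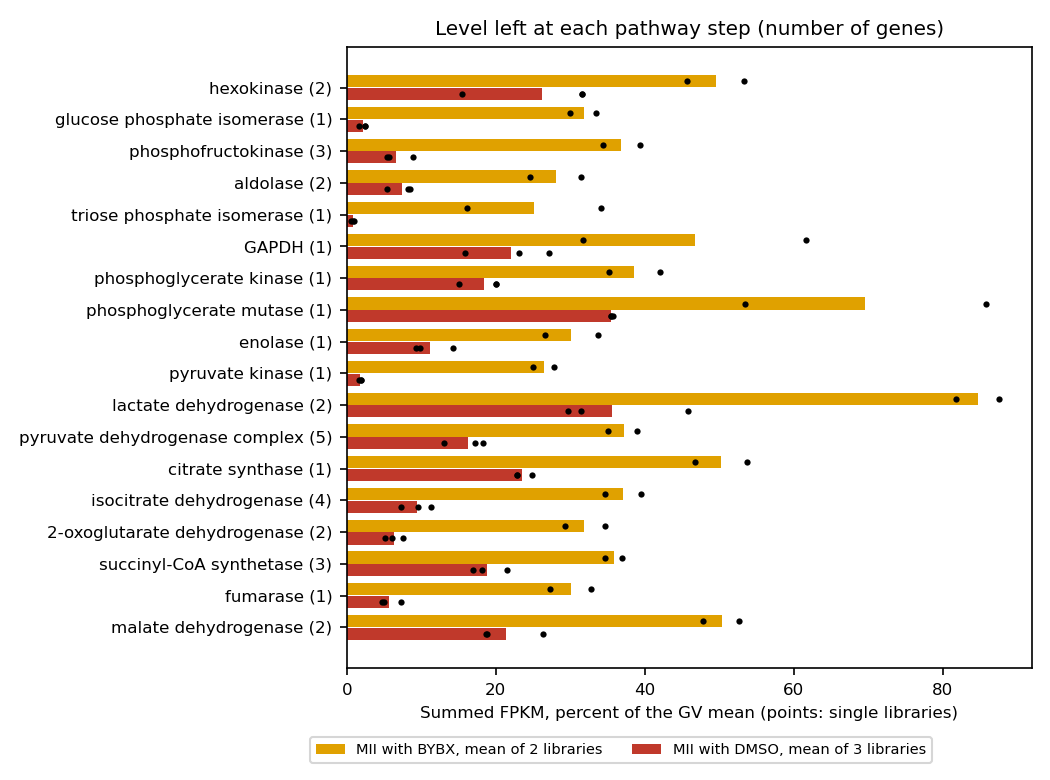
Summed FPKM of each of the 18 steps as percent of the GV mean, with bars for the mean of MII with BYBX and of MII with DMSO and points for single libraries. The bars run from 0.803% to 35.6% with DMSO and from 25.1% to 84.7% with BYBX.

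The 6 genes with a G-rich match spanned 0.71 to 3.60 with BYBX against DMSO, where the tested members spanned 0.31 to 4.36. Among the 6, Pkm and Gpi1 were 3.60 and 2.70 higher, Dlat 1.32, Eno1 1.12, Pgk1 0.96 and Pfkl 0.71, around the member median of 1.42. The letters TTTTAT or TTTTAAT, the usual cytoplasmic polyadenylation element, were in the last 100 bases of 3 of the 34 transcripts (8.82%: Cs, Dld and Fh1), against 20.2% of tested entries. The polyadenylation signals AATAAA or ATTAAA were there in 79.4% against 81.4%.

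Other genes of these pathways, 68 in all and none of them members, were read from the same fit. Of these, 39 were tested. From GV to MII with DMSO, 38 were lower and 0 higher, with a median of -2.15, where 88.3% of all entries were lower and their median was -1.83. With BYBX against DMSO 31 were higher and 0 lower, with a median of 1.14, beside 65.2% and 0.84 for all entries. Against GV 31 were lower and 0 higher, with a median of -1.18, beside 69.2% and -0.99. The largest falls at MII were those of Sdhd, a membrane anchor of succinate dehydrogenase, and Ldhc, the germ-cell lactate dehydrogenase. Sdhd went from 212 ± 15.2 to 0.667 ± 0.323 FPKM and stood at 53.1 ± 15.3 with BYBX, and Ldhc went from 68.2 ± 2.78 to 0.159 ± 0.123 and stood at 23 ± 10.3 (SD, n = 2, 3 and 2). Both were also the largest rises with BYBX, at 5.01 and 4.31 on the log2 scale. Ldhc was thus second to Ldhb among lactate dehydrogenases in GV with 0.159 FPKM left in MII with DMSO.

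At the other end, Bpgm, the bisphosphoglycerate mutase, was at 1795 ± 94.6 FPKM in GV, 1654 ± 384 in MII with DMSO and 1932 ± 705 with BYBX (SD, n = 2, 3 and 2), and was not called in any comparison (fold changes -0.15, 0.20 and 0.06). Taldo1, the transaldolase of the pentose phosphate pathway, fell by 0.63 (adjusted p = 0.031) and was 0.36 lower with BYBX than in GV without being called (adjusted p = 0.25). Gpd2 and Pfkfb2 differed least between BYBX and DMSO beside Bpgm, by 0.08 and 0.20. The lowest with BYBX against GV were the glucose transporter Slc2a1 (-2.04), G6pdx, the first enzyme of the pentose phosphate pathway (-2.0), and Sdhd (-2.0).

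The counts by list stand beside the same shares of all entries. The 6 remaining TCA genes (aconitase and succinate dehydrogenase) were all lower at MII, with a median of -3.89, and 5 were higher with BYBX against DMSO. Of the transporters of glucose, lactate and pyruvate, 5 of 11 were tested, and all 5 were lower at MII (median -3.57) and higher with BYBX (median 2.0). The tested genes of the anaplerotic, gluconeogenic and malic enzymes (5 of 8) did the same, with medians of -2.97 and 1.81. Of the pentose phosphate genes 6 of 7 were tested, 6 were lower at MII and 5 higher with BYBX. All 6 tested regulators of 12 were lower at MII and 5 of them higher with BYBX, with smaller medians of -1.36 and 0.74. Of the malate-aspartate shuttle 4 of 5 genes were tested, 4 were lower and 3 higher with BYBX, of the glycerol phosphate shuttle 2 of 3 were tested, 2 were lower and 1 higher, and of the other isozymes 5 of 16 were tested, 4 were lower and 2 higher.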

How the data were processed

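Smart-seq2 libraries of 10 oocytes each were analysed for 2 GV, 3 MII with DMSO and 2 MII with BYBX samples, grouped by their labels. The authors trimmed reads with Trim Galore 0.6.7, aligned them to mm10 with HISAT2 2.2.1, passed uniquely mapped reads to Cufflinks 2.2.1 with UCSC gene models, and deposited FPKM values scaled by the ERCC spike-in, with the GV libraries of a batch as the reference across batches. The factors and batches are not given in the sources used here. This scaling sets the size of the differences between groups and can set their direction.

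Each table listed 25912 entries, and 4 with a missing value were left out. The rest were compared as log2(FPKM + 1) with limma 3.58.1 in R 4.3.3 (eBayes with an intensity trend) over the 9202 entries with a mean of the 3 group means of at least 1 FPKM, all 7 libraries in 1 model of 3 group means with 4 residual degrees of freedom, and p-values adjusted by Benjamini-Hochberg over all entries. In simulated data of the comparison of BYBX with DMSO over 9202 genes, all but the changed genes had the same mean in every group. There 87 of 100 changes of 2 on the log2 scale and 33 of 100 changes of 1 were recovered, with 6 false calls. In the data 65.2% of entries were called higher in this comparison, so these rates do not carry over to the calls given here. Within-library ratios were compared by exact permutation. Transcript features, coordinates and shared 50-base words came from the GENCODE vM21 transcripts and annotation on GRCm38, which UCSC calls mm10, with 1 protein-coding transcript a gene. Tables and plots used matplotlib 3.10.9, pandas 2.3.3 and numpy 2.4.6 on Python 3.11.15.

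All 34 members were named, and of the other pathway genes the 2 highest and 2 lowest fold changes of each comparison, with ties. Hk3 and genes named for their overlap or shared words fall outside this rule. Members, lists and ratio pairs were chosen with earlier results of these data known. The alternatives were a pseudocount of 0.1, a filter at 5 FPKM or none, a replicate block, fits on the pair of groups alone, no intensity trend, libraries brought to a common total or centred on their medians, a 2-fold minimum and leaving out each library.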

Additional observations from a re-analysis of the deposited data

How the results depend on the processing

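The 6 counts of members called stayed within 1.5 times of the reported values with a pseudocount of 0.1, a filter at 5 FPKM or none, only the 2 groups compared, no intensity trend, a minimum of 2-fold and each library left out. Without single libraries the counts ranged from 25 to 28 lower at MII, from 23 to 26 higher with BYBX against DMSO and from 18 to 22 lower with BYBX against GV, with 0 in the other directions. The scale moved them. At the same total FPKM 3 members were higher at MII, 15 were higher with BYBX against DMSO, and 4 were lower and 2 higher with BYBX against GV. With median centring 14 were lower and 8 higher at MII, 9 higher and 5 lower with BYBX against DMSO, and 8 lower and 3 higher with BYBX against GV. The median share of the GV to MII difference still present with BYBX was 0.498 at the same total FPKM and ranged from 0.224 to 0.342 without single libraries.

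With a pseudocount of 0.1 no member fold change lost its call, but 2 of 28 at MII (Pfkl and Pfkp) and 5 of 28 with BYBX against DMSO (Gapdh, Idh3b, Idh3g, Pfkl and Pfkp) grew by over 1.5 times. Single members changed sign with the scale, by construction of the rescaling. At MII against GV the fold changes at the same total FPKM were 0.37 for Ldhb, 0.86 for Mdh1, 0.65 for Ogdh, 0.99 for Pdhb, 0.35 for Pgam1 and 1.23 for Suclg2. With median centring they were 0.31 for Cs, 0.80 for Gapdh, 0.79 for Ldhb, 1.32 for Mdh1, 1.48 for Ogdh, 1.45 for Pdhb, 0.79 for Pfkl, 1.07 for Pgam1, 0.04 for Pgk1 and 1.81 for Suclg2. With BYBX against DMSO the values at the same total were -0.12 for Mdh1, -0.02 for Ogdh, -0.45 for Pdhb and -0.51 for Suclg2, and with median centring -0.23 for Cs, -0.15 for Eno1, -0.65 for Gapdh, -0.00 for Ldhb, -0.53 for Mdh1, -0.61 for Ogdh, -0.86 for Pdhb, -0.56 for Pfkl, -0.52 for Pgam1, -0.32 for Pgk1, -0.23 for Sucla2, -0.00 for Suclg1 and -0.97 for Suclg2. With BYBX against GV the values at the same total were 0.02 for Cs, 0.05 for Idh3a, 0.75 for Ldhb, 0.74 for Mdh1, 0.64 for Ogdh, 0.53 for Pdhb, 0.39 for Pgam1 and 0.72 for Suclg2, and with median centring 0.08 for Cs, 0.16 for Gapdh, 0.11 for Idh3a, 0.79 for Ldhb, 0.79 for Mdh1, 0.87 for Ogdh, 0.59 for Pdhb, 0.22 for Pfkl, 0.55 for Pgam1 and 0.85 for Suclg2. Without single libraries the uncalled differences of Ogdh and Suclg2 between BYBX and GV ranged from -0.58 to 0.27 and from -0.45 to 0.09.

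With a pseudocount of 0.1 some ratios changed sign: Pfkm to Pfkp with BYBX against GV (-0.21), Ldha to Ldhb at MII against GV (-0.86), and Dlat to Pdhx at MII against GV (-0.14), with BYBX against DMSO (0.04) and with BYBX against GV (-0.09). Without single libraries the ratio of Dlat to Pdhx with BYBX against GV ranged from -0.02 to 0.11 and that of Idh3a to Idh3b with BYBX against DMSO from -0.19 to 0.13. The cause was not tested.

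With the replicate number as a block, 27 members were lower at MII, 23 higher with BYBX against DMSO and 22 lower with BYBX against GV, and the calls of Gapdh (0.65) and Pgam1 (0.76) with BYBX against DMSO were lost. The labels name no shared source for same-numbered libraries. Their deviations correlated positively for MII against GV (0.487 and 0.282) and negatively for BYBX against DMSO (-0.601 and -0.348) and against GV (-0.33), so the number was not taken as a pairing of all groups. With the pairing of GV and BYBX crossed, an alternative chosen after seeing the data, 22 members were lower and 0 higher. Without a filter on level the calls of Ogdh at MII (-0.82) and of Gapdh (0.63) and Pfkl (0.71) with BYBX against DMSO were lost. The number of libraries limits the precision, and levels well under 1 FPKM say only that a transcript was low.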
